A study of Mus musculus with 6 samples.

Results

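The variable genes of the immunoglobulin loci were described in lungs of Col6a1-/- and wildtype mice. They were taken as all rows of the normalized count table whose symbol starts with Ighv (heavy chain), Igkv (kappa light chain) or Iglv (lambda light chain) and whose value was above 0 in at least 1 of the 6 libraries. This gave 223 genes of 49568 rows: 110 of 183 Ighv rows, 110 of 160 Igkv rows and all 3 Iglv rows. Because detection in any library chose them, the number of genes with a signal is a property of the rule and no finding. At the edge of the rule, 16 genes were held by a single read over all libraries, 23 were above 0 in 1 library, and 123 rows stood at 0 throughout.

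Right lung lobes, perfused to clear the blood vessels, came from mice aged 6 weeks on a C57BL/6 background, either wildtype or Col6a1-/-, with no other allele or treatment named. Total RNA of 2 animals of 1 genotype was combined for each library, and each of the 12 animals entered 1 pool, so that every genotype has 3 separate pools, numbered here by replicate. A pool hides the difference between its animals, and the sex of the animals was not given in the labels.

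An antibody is a pair of heavy chains and a pair of light chains, and the amino terminal domain of each chain binds antigen. That domain is assembled in developing B cells by joining 1 V gene, out of many arrayed along the locus, to a J segment, with a D segment between them in the heavy chain. Each B cell and its progeny keep their own choice, so that the spread of reads over V genes reflects how many B and plasma cell lineages contribute and how much each one transcribes. Plasma cells, which secrete antibody, carry far more immunoglobulin mRNA per cell than resting B cells. In bulk RNA, fewer cells of a type and less RNA per cell cannot be told apart.

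The heavy chain V genes lie on chromosome 12 between 113578504 and 116010093, the kappa V genes on chromosome 6 between 67555497 and 70704177, and the lambda V genes on chromosome 16 between 19085017 and 19260859 (GRCm38, GENCODE M21). Of the 223 genes, 195 are annotated as functional and 28 as pseudogenes. The last 60 bases of the germline coding sequence, the part that reaches into the third hypervariable loop, are shown for the genes on which the results below turn: the leading heavy chain genes, the leading kappa genes, the kappa gene that stood out in 1 library, and a pair of lambda genes that differed in behaviour. Each runs 5′ to 3′ on the coding strand, from the GENCODE M21 transcript. Capitals mark the last cysteine codon in frame, which in a V gene encodes the conserved cysteine that precedes the third hypervariable loop.
Ighv9-3: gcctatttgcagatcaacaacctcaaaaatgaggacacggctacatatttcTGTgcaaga
Ighv1-26: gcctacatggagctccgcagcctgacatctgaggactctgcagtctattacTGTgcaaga
Igkv1-117: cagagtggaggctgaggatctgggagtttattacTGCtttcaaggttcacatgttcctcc
Igkv1-135: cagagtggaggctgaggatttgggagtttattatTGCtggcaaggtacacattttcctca
Igkv16-104: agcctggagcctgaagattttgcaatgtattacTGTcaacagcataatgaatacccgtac
Iglv1: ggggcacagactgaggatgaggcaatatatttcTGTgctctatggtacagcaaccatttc
Iglv2: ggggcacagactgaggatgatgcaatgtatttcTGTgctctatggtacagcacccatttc
Iglv1 and Iglv2 differed at 11 of 351 coding bases (96.9% identity), of which 3 lay in the stretch shown: G21T, A27G and A53C, with the base of Iglv1 first and positions counted from the 5′ end of that stretch. Such likeness is common among V genes. Over the 195 functional members, a median of 76.8% of all windows of 50 bases in a gene's transcript occurred in no other annotated gene, and 28 members were below 50%. Reads that fit several V genes may have been lost or assigned to a neighbour. How such reads were counted is a point not given in the sources used here, so that the level of a single V gene is uncertain where its unique share is low.

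Each library held between 28055414 and 37904878 reads assigned to genes. The targeted gene, Col6a1, had 19907, 18393 and 22331 normalized counts in wildtype and 10034, 10616 and 9344 in Col6a1-/- pools 1 to 3, lower in every library labelled Col6a1-/-. Lung identity was plain from Sftpc, the surfactant protein gene of alveolar type 2 cells, at 443498 to 583425 normalized counts, and Ager, of alveolar type 1 cells, at 58324 to 75438, with overlap between the genotypes for both. The pools differed in sex composition, a property read here from the data. Scaled to the highest library, Col6a1-/- pool 2, the signal of 4 Y-linked genes was 0.347%, 3.35% and 51.5% in wildtype pools 1 to 3 and 72.5%, 100% and 51.1% in Col6a1-/- pools 1 to 3. Wildtype pool 3 and Col6a1-/- pool 3 were therefore nearly matched in this respect, while the remaining pools were not. In Igkv usage Col6a1-/- pool 2 stood apart from all other libraries, and in Ighv usage from the other Col6a1-/- pools, as the values below show.

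All 3 classes of V genes took a smaller share of reads in each Col6a1-/- pool than in any wildtype pool. Their sum was 77.7, 69.4 and 58.7 rpm (reads per 1000000 reads in genes) in wildtype pools 1 to 3 and 50.2, 52.7 and 51.1 in Col6a1-/- pools 1 to 3, or 68.6 ± 9.53 against 51.3 ± 1.30 (SD, n = 3 pools each). The Col6a1-/- mean was 74.8% of wildtype. These sums rested on 1498 to 2327 V reads per library, and no p is given for a sum over genes that were chosen with earlier results known. An exact permutation test of 3 pools against 3 cannot go below 0.1 in any case.

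Heavy chain V genes had 25.3, 23.3 and 18.6 rpm in wildtype and 15.2, 15.2 and 13.9 in Col6a1-/- pools 1 to 3. The mean was 22.4 ± 3.46 against 14.8 ± 0.75 (SD, n = 3 each), or 66.1% of wildtype. The 95% exact binomial interval, which covers counting error only, was 17.1 to 20.1 in wildtype pool 3, the lowest of its group, and 13.8 to 16.8 in Col6a1-/- pool 2, the highest of the other. The nearest libraries of the groups thus differed by more than counting error, while wildtype pools spread more widely than Col6a1-/- pools.

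Kappa V genes were closer between the genotypes. They had 43.8, 40.8 and 35.9 rpm in wildtype and 31.1, 34.6 and 33.2 in Col6a1-/- pools 1 to 3, or 40.2 ± 3.98 against 33.0 ± 1.77 (SD, n = 3 each). The Col6a1-/- mean was 82.1% of wildtype, and the intervals of the nearest libraries overlapped, at 33.9 to 38.0 in wildtype pool 3 and 32.5 to 36.9 in Col6a1-/- pool 2.

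Lambda V genes had 8.65, 5.28 and 4.25 rpm in wildtype and 3.83, 2.85 and 3.95 in Col6a1-/- pools 1 to 3. The Col6a1-/- mean was 58.4% of wildtype, and 1 library, wildtype pool 1, stood far above all others. Without wildtype pool 1 the log2 ratio of the lambda means was -0.43, against -0.78 with all libraries, and the nearest libraries of the groups differed by less than their counting intervals, 3.57 to 5.03 in wildtype pool 3 and 3.27 to 4.72 in Col6a1-/- pool 3.

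The pools of intermediate Y-linked signal were also compared alone, wildtype pool 3 (51.5% of the highest signal) against Col6a1-/- pools 1 (72.5%) and 3 (51.1%). The log2 ratio was -0.35 for Ighv, -0.16 for Igkv and -0.13 for Iglv, against -0.60, -0.28 and -0.78 in the full set. This comparison was chosen after seeing the data and has 1 wildtype pool, so that it has no test. The part of the sex of the pools in the result was not tested further.

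**Figure D1:**
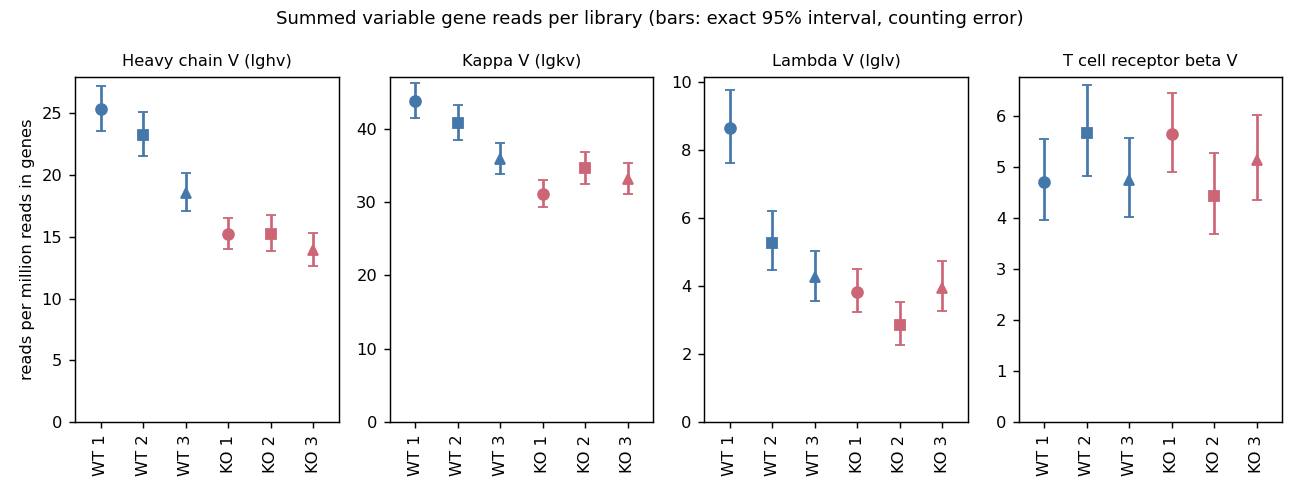
Summed V gene rpm (vertical axis) in the 6 libraries (horizontal axis, WT wildtype, KO Col6a1-/-, numbered by replicate), for the 3 immunoglobulin classes and for the T cell receptor beta V genes; bars are exact 95% binomial intervals. Every Col6a1-/- point lies below every wildtype point for Ighv, Igkv and Iglv, whereas the T cell receptor points of the genotypes overlap.

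T cell receptor V genes, rearranged by the same machinery in T cells, were measured in the same way for comparison. The 82 of them above 0 summed to 6.82, 7.09 and 6.83 rpm in wildtype and 7.65, 5.95 and 7.13 in Col6a1-/- pools 1 to 3. The Col6a1-/- libraries lay on both sides of the wildtype range, and the means of the genotypes were 6.91 ± 0.16 and 6.91 ± 0.87 (SD, n = 3 each). Whether immunoglobulin and T cell receptor V genes differed in their change was not tested.

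The constant genes, which supply the rest of each chain, differed among themselves in how the genotypes compared. Ighm, the constant gene of IgM, had 7066, 6861 and 5334 normalized counts in wildtype and 4374, 4465 and 4525 in Col6a1-/- pools 1 to 3, 69.4% of wildtype, with a log2 fold change of -0.52 and a limma adjusted p of 0.0869. Ighd, of IgD, stood at 91.0% (limma adjusted p 0.509), and Igkc, the kappa constant gene, at 83.3% (limma adjusted p 0.244). Of the 10 tested genes among 13 constant and J chain genes, 3 were lower and 4 higher at an unadjusted limma p under 0.05. By the same rule, 10.6% of all tested genes were lower and 9.72% higher. The list held 1 gene called by edgeR and 3 by DESeq2, against 0.077% and 5.06% of all genes with an adjusted p. By limma 1 gene passed the threshold, against 0.0652% of all tested genes. This was Igha, of IgA, which rose from 182 ± 19.2 to 467 ± 49.5 normalized counts (SD, n = 3 each, limma adjusted p 0.00643). The call was lost with the scaled Y-linked signal of each pool as a covariate (limma adjusted p 0.287), without wildtype pool 1 (0.0562) and without Col6a1-/- pool 3 (0.123). In each of these fits 0 genes of the whole table were called, so that the loss was not particular to Igha. Igha made up 2.19% ± 0.34 of heavy chain constant counts in wildtype and 7.09% ± 0.94 in Col6a1-/- lungs, and Ighm 76.2% ± 1.95 and 67.5% ± 2.04 (SD, n = 3 each). The IgG genes summed to 31.0 ± 8.17 and 72.1 ± 19.0 normalized counts, which is low in both genotypes. Ighg1 and Ighg2b had limma adjusted p of 0.151 and 0.145. Ighg2c, Ighg3 and Ighe did not pass the filter on low counts. Ighg3 had 49.2 normalized counts in Col6a1-/- pool 2 and 4.84 to 9.35 in the other libraries. Jchain, which links IgM and IgA into polymers, had 132, 70.3 and 48.4 normalized counts in wildtype and 125, 191 and 142 in Col6a1-/- pools 1 to 3 (limma adjusted p 0.148).

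V genes were also set against the constant genes of the same locus. Ighv counts per 1000 Ighm counts were 111, 104 and 109 in wildtype and 106, 106 and 92.8 in Col6a1-/- pools 1 to 3, with overlapping groups. Set against all heavy chain constant genes, Igha and IgG included, they were 86.7, 80.2 and 80.4 in wildtype and 70.2, 74.0 and 61.5 in Col6a1-/- libraries, with no overlap. Igkv counts per 1000 Igkc counts were 424 ± 34.2 and 409 ± 23.5 (SD, n = 3 each) and overlapped. Iglv counts per 1000 Iglc counts were 279, 195 and 201 in wildtype and 173, 160 and 156 in Col6a1-/- libraries, 72.5% of wildtype with no overlap. Among V reads, the kappa share was 56.3% to 61.1% in wildtype and 62.0% to 65.7% in Col6a1-/- libraries, and the heavy chain share 31.6% to 33.5% and 27.3% to 30.3%.

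Most B cell genes had lower estimates as well. In the B cell list of 20 genes this held for 19, where 48.3% of all tested genes had a lower estimate. At an unadjusted limma p under 0.05, 14 of the 20 were lower, against 10.6% of all tested genes. None passed the threshold by limma or edgeR, and 8 did by DESeq2, which called 5.06% of all genes with an adjusted p. The median log2 fold change of the list was -0.37, against 0.01 over all tested genes. Pax5 and Spib, transcription factors of B cells, stood at 55.9% and 49.8% of wildtype, each with a limma adjusted p of 0.0681, and Blk, a kinase of the B cell receptor pathway, at 60.7% (limma adjusted p 0.0812). Vpreb3 was the member with a higher estimate, at 774 normalized counts in Col6a1-/- pool 2 and 253 to 451 in the other libraries (log2 fold change 0.36, and -0.01 without that pool). Per 1000 counts summed over the B cell list, V genes had 156, 144 and 148 counts in wildtype and 141, 168 and 141 in Col6a1-/- pools 1 to 3, or 149.6 ± 6.13 against 150.1 ± 15.9 (SD, n = 3 each). On this scale the genotypes overlapped for each class: 48.7 ± 2.03 and 43.3 ± 5.16 for Ighv, 87.8 ± 2.87 and 96.5 ± 12.4 for Igkv, and 13.0 ± 3.78 and 10.2 ± 0.99 for Iglv. The overlap for the sum and for Ighv rested on Col6a1-/- pool 2. Without it, the sum was 141 in both remaining Col6a1-/- pools against a lowest wildtype value of 144, and Ighv was 42.8 and 38.4 against 46.9, with no overlap. Igkv and Iglv still overlapped. This comparison was chosen after seeing the data.

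Red cell genes, a sign of blood left in the tissue, had higher estimates. This held for all 8 of the list, 7 of them at an unadjusted limma p under 0.05, against 9.72% of all tested genes, and their median was 0.85 on the log2 scale. None passed the threshold by limma or edgeR, and 7 did by DESeq2, against 5.06% of all genes with an adjusted p. Their summed level was 41944 to 48044 normalized counts in wildtype and 62326 to 102813 in Col6a1-/- libraries. The T cell list had 7 of 12 lower estimates with a median of -0.05. The part of residual blood in the V gene difference was not tested.

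Single V genes were measured at low depth. The highest mean in a class was 25.7 normalized counts for Ighv, 72.1 for Igkv and 88.8 for Iglv. A filter of at least 10 normalized counts in at least 3 libraries left 65 V genes to test: 22 Ighv, 40 Igkv and 3 Iglv. The remaining 158 did not pass it. Of the 65, 22 reached 10 in all 6 libraries, while 7 reached it in every wildtype library and in no Col6a1-/- library, so that those 7 had to differ by the way they entered. They were Ighv1-55, Ighv1-22, Ighv1-19, Ighv6-6, Igkv12-89, Igkv2-109 and Igkv4-55, of which those outside the naming rule are listed for completeness, and their p and lack of overlap support nothing.

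No V gene passed the threshold of 0.05 on the limma adjusted p over all 16879 tested genes, of which 11, or 0.0652%, did. The smallest adjusted p of a V gene was 0.0950. At an unadjusted limma p under 0.05, 18 of the 65 were lower in Col6a1-/- lungs and 2 higher. Of all tested genes, 10.6% were lower and 9.72% higher by the same rule. Of the 3647 tested genes within the range of means of the tested V genes, 3.78% were lower. Without genes that passed the filter through 1 genotype only, a restriction added after seeing the data, 11 of 58 V genes were lower, against 10.5%. The restriction kept genes below 10 in some Col6a1-/- libraries, such as Ighv1-64 at 8.83, 8.75 and 13.0 normalized counts in pools 1 to 3. The filter thus still bears on this count. By edgeR's quasi-likelihood test on the recovered reads, again none of 65 was called, against 0.077% of all tested genes. Of the 65, 23 had an unadjusted edgeR p under 0.05, 20 lower and 3 higher. The share of all tested genes by this rule was not worked out, so that these counts have no background. DESeq2 on the recovered reads gave an adjusted p to 14672 of 28476 genes and called 5.06% of those. It called 2 V genes, Iglv1 lower and Igkv16-104 higher. How many of the 223 V genes had an adjusted p in that fit is not given, so that 2 of 223 is not a like share. The same 2 passed in the authors' deposited table, where 8 V genes had an adjusted p. Of all genes with an adjusted p in that table, 5.05% passed.

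Estimates were lower for 55 of the 65 tested V genes, where 48.3% of all tested genes had a lower estimate. The median log2 fold change was -0.59 over the 65, -0.80 over the 22 Ighv and -0.46 over the 40 Igkv genes, against 0.01 over all tested genes. The genotypes did not overlap for 22 of the 65 with lower values and for 3 with higher values, against 14.2% and 10.7% of all tested genes. Without genes that passed the filter through 1 genotype only, 15 of 58 were lower without overlap, against 14.1%. Of the 3647 tested genes within the range of means of the tested V genes, 6.47% were lower without overlap. Of all 223 V genes, 40 were lower and 6 higher without overlap, against 9.4% and 7.87% of all genes above 0. These shares describe genes that were chosen and partly filtered on the same counts.

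**Figure D2:**
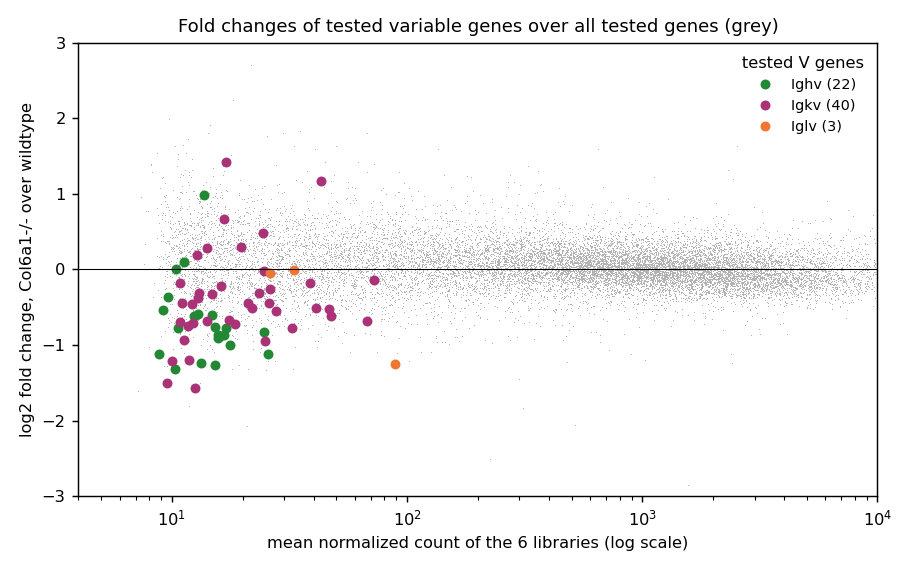
Log2 fold change of Col6a1-/- over wildtype (vertical axis) against the mean normalized count of the 6 libraries (horizontal axis, log scale) for the 65 tested V genes in colour and all tested genes in grey; grey points beyond the axes are not drawn. The V genes sit at the low end of the range, and 55 of the 65 lie below 0.

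Among heavy chain genes, Ighv9-3 (ENSMUSG00000096459.1, chromosome 12, 114140692 to 114141122, minus strand) had the highest mean, 73.1 normalized counts per kilobase of transcript. It had 49.8, 36.2 and 21.3 normalized counts in wildtype and 16.9, 19.7 and 10.0 in Col6a1-/- pools 1 to 3. The groups did not overlap, although wildtype pool 3 lay close to Col6a1-/- pool 2 (log2 fold change -1.13, SE 0.37, limma adjusted p 0.149). In share of Ighv reads they did overlap, at 3.68% in wildtype pool 3 and 4.16% in Col6a1-/- pool 2. Ighv1-26 (chromosome 12, 114788372 to 114788805, minus strand) followed with 70.5 per kilobase. It had 31.2, 36.2 and 27.1 normalized counts in wildtype and 25.7, 14.2 and 14.0 in Col6a1-/- libraries, with a limma adjusted p of 0.181. Of its transcript windows, 51.0% occurred in no other gene.

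Ighv1-55 and Ighv1-22 are among the 7 genes that passed the filter through wildtype only, so that their values are given as a description. For Ighv1-55 the normalized counts were 17.7, 24.2 and 24.2 in wildtype and 8.83, 7.65 and 9.0 in Col6a1-/- pools 1 to 3, which is 38.6% of wildtype. Ighv1-22 was at 39.2% of the wildtype mean. Ighv1-9, Ighv1-82, Ighv3-6 and Ighv1-64 stood at 48.3% to 54.2% of wildtype without overlap, with limma adjusted p of 0.156 to 0.219. In share of Ighv reads, Ighv1-9 again had no overlap, whereas Ighv1-82, Ighv3-6 and Ighv1-64 overlapped. Ighv1-18 stood at 53.1%, with overlapping groups and an adjusted p of 0.328.

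The remaining leaders, Ighv7-3 and Ighv7-1, belong to the Ighv7 family and varied more between pools than between genotypes. Ighv7-3 had 48.8, 6.59 and 12.6 normalized counts in wildtype and 2.41, 30.6 and 5.00 in Col6a1-/- pools 1 to 3. Ighv7-1 had 19.7, 16.5 and 12.6 in wildtype and 9.63, 30.6 and 2.00 in Col6a1-/- libraries. Their limma adjusted p were 0.524 and 0.556. Both were high in Col6a1-/- pool 2, where each took 6.47% of Ighv reads (28 of 433).

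Of the kappa genes, Igkv1-117 (ENSMUSG00000094335.2, chromosome 6, 68121046 to 68121827, plus strand) had the highest mean, 179 normalized counts per kilobase. Its counts were 82.0, 73.6 and 68.7 in wildtype and 50.6, 91.8 and 66.0 in Col6a1-/- pools 1 to 3, with overlapping groups (log2 fold change -0.14, limma adjusted p 0.751). Igkv1-135 (chromosome 6, 67609713 to 67610508, plus strand), of the same family and at 172 per kilobase, did separate the groups in normalized counts. It had 96.6, 64.8 and 90.0 normalized counts in wildtype and 47.3, 55.8 and 51.0 in Col6a1-/- libraries, 61.3% of wildtype (log2 fold change -0.68, SE 0.21, limma adjusted p 0.132). In share of Igkv reads, Igkv1-135 overlapped between the genotypes, at 5.15% in wildtype pool 2 and 5.18% in Col6a1-/- pool 2. Whether Igkv1-117 and Igkv1-135 differed in their change was not tested.

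Igkv10-96, Igkv1-110 and Igkv15-103 also had no overlap between the genotypes, at 64.7%, 69.3% and 56.2% of wildtype, with limma adjusted p of 0.152, 0.207 and 0.191. In share of Igkv reads, Igkv10-96 again had no overlap, whereas Igkv1-110 and Igkv15-103 overlapped. Igkv12-89 and Igkv2-109, at 40.9% and 34.8% of wildtype, passed the filter through wildtype only and are given as a description. Igkv6-15, Igkv19-93, Igkv12-44 and Igkv9-120 overlapped between the genotypes, at 68.5%, 87.6%, 74.7% and 81.6% of wildtype.

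Kappa genes with higher values in Col6a1-/- lungs were few. Igkv4-72 (chromosome 6, 69226854 to 69227433, minus strand) had 8.31, 6.59 and 11.6 normalized counts in wildtype and 30.5, 25.1 and 20.0 in Col6a1-/- pools 1 to 3. It was higher in every Col6a1-/- library, at 285% of the wildtype mean, and had the smallest limma adjusted p of the tested V genes, 0.0950 (log2 fold change 1.43, SE 0.34). Igkv14-126 stood at 177% of wildtype, with 33.9 normalized counts in Col6a1-/- pool 2 (log2 fold change 0.66, limma adjusted p 0.35). Without that pool its log2 fold change was 0.28.

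Igkv16-104 (ENSMUSG00000076522.2, chromosome 6, 68425575 to 68426072, plus strand) had 31.2, 20.9 and 18.4 normalized counts in wildtype and 39.3, 116 and 32.0 in Col6a1-/- pools 1 to 3. The groups did not overlap, but wildtype pool 1 and Col6a1-/- pool 3 were almost level, and Col6a1-/- pool 2 alone held 45.0% of the gene's summed count. Its limma adjusted p was 0.177, and it was 0.0488 in the authors' deposited table. In Col6a1-/- pool 2 the gene took 10.8% of Igkv reads (106 of 984, exact 95% interval 8.90% to 12.9%), against 1.64% to 2.29% in wildtype and 3.2% to 4.15% in the other Col6a1-/- libraries. All of its transcript windows were unique. Without Col6a1-/- pool 2 its log2 fold change was 0.61, against 1.17 with all libraries.

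The lambda locus of the mouse has only a few V genes, and the lambda difference lay in 1 of them: without Iglv1 the log2 ratio of the lambda sums was 0.00499. Iglv1 (ENSMUSG00000076934.2, chromosome 16, 19085017 to 19085500, minus strand), the most abundant V gene per length at 227 normalized counts per kilobase, had 199, 113 and 72.6 normalized counts in wildtype and 49.8, 44.8 and 53.0 in Col6a1-/- pools 1 to 3. It stood at 38.3% of wildtype, with wildtype libraries that spread more widely than the Col6a1-/- ones (log2 fold change -1.25, SE 0.31, limma adjusted p 0.101). In the authors' deposited table its log2 fold change was -0.73 with an adjusted p of 0.00278. Fold changes there are not on the limma scale, since genes held by a single read had values such as -0.0076. Iglv2 had 39.5, 30.7 and 29.0 in wildtype and 36.9, 26.2 and 36.0 in Col6a1-/- libraries, and Iglv3 had 30.1, 18.7 and 31.0 in wildtype and 29.7, 17.5 and 30.0. Both overlapped fully, at 99.9% and 96.8% of wildtype, with limma adjusted p of 0.994 and 0.946.

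Iglv1 made up 74.1%, 69.6% and 54.7% of lambda V reads in wildtype and 42.8%, 50.6% and 44.5% in Col6a1-/- pools 1 to 3, with no overlap. The exact 95% intervals of the nearest pair, 46.0% to 63.3% in wildtype pool 3 and 39.3% to 61.9% in Col6a1-/- pool 2, overlapped. In the mouse, Iglv1 is joined mainly to the segments of Iglc1 or Iglc3, and Iglv2 to those of Iglc2. Iglc1 stood at 61.9% of wildtype without overlap (limma adjusted p 0.142), Iglc3 at 84.9% and Iglc2 at 93.8%, both with overlap. Iglv1 counts per 1000 Iglc1 counts were 606, 456 and 405 in wildtype and 308, 339 and 303 in Col6a1-/- pools 1 to 3. Reads of the stretches that Iglv1 and Iglv2 share may be counted for neither, and 77.8% and 76.0% of their windows were unique.

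**Figure D3:**
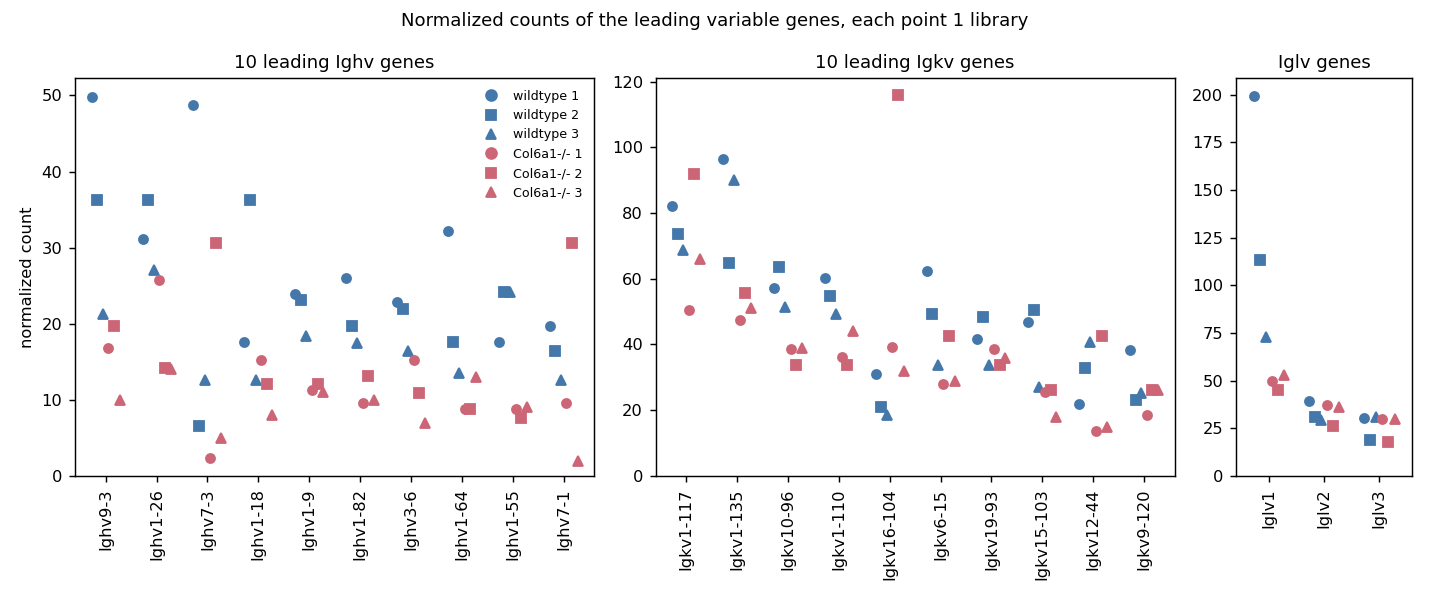
Normalized counts (vertical axis, a separate scale in each panel) of the 10 leading Ighv genes, the 10 leading Igkv genes and the 3 Iglv genes, each point 1 library, with colour for genotype and shape for replicate. Iglv1 is lower in all Col6a1-/- libraries, and Igkv16-104 stands out at 116 in Col6a1-/- pool 2.

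Usage was spread over many V genes in both genotypes. The Simpson effective number, which is the number of equally used genes that would give the same chance of drawing 1 gene in both of 2 reads, was computed from reads with the correction for sampling. For Ighv it came to 43.5, 44.7 and 55.3 in wildtype and 46.7, 43.8 and 51.0 in Col6a1-/- pools 1 to 3, or 47.8 ± 6.48 against 47.2 ± 3.60 (SD, n = 3 each). The groups overlapped, and the mean difference was a small part of the spread between pools. Shannon evenness, where 1 stands for equal use of all genes detected, was 0.89 to 0.93 in wildtype and 0.91 to 0.93 in Col6a1-/- libraries. The 10 leading genes of a library took 31.3% to 39.1% of its Ighv reads in wildtype and 34.5% to 38.6% in Col6a1-/-.

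Kappa usage was less even than heavy chain usage in every library by the Simpson effective number, and 1 library was low. The Simpson effective number of Igkv came to 39.0, 41.0 and 38.9 in wildtype and 43.3, 27.6 and 42.3 in Col6a1-/- pools 1 to 3. Col6a1-/- pool 2 was lower than all others, and the remaining Col6a1-/- libraries were above the wildtype range. With all libraries the Col6a1-/- mean was 1.93 genes below wildtype, and without Col6a1-/- pool 2 it was 3.14 above. In that library the 10 leading Igkv genes took 48.9% of reads, against 38.4% to 41.8% in the other libraries.

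**Figure D4:**
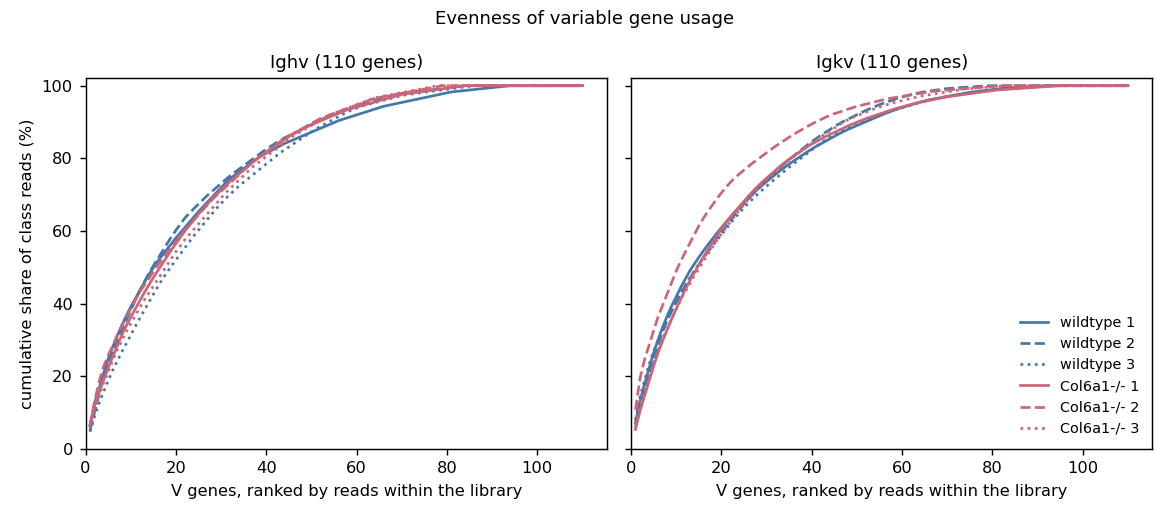
Cumulative share of class reads in percent (vertical axis) against the rank of V genes by reads within each library (horizontal axis), 1 line per library, with colour for genotype and line style for replicate. The Ighv lines run close together, and the Igkv line of Col6a1-/- pool 2 rises above the others.

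The number of V genes with a read was closer between the genotypes at equal depth. Ighv genes above 0 numbered 94, 84 and 86 in wildtype and 84, 79 and 78 in Col6a1-/- pools 1 to 3, from 598 to 758 and 420 to 577 reads. Thinned to 420 reads, the expected numbers were 83.8, 77.5 and 80.3 in wildtype and 79.1, 78.5 and 78.0 in Col6a1-/- libraries, which overlapped. For Igkv, thinned to 984 reads, they were 85.8 ± 7.19 and 85.7 ± 5.74 (SD, n = 3 each).

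The gene in first place differed between libraries. In Ighv it was Ighv9-3 in wildtype pool 1, Ighv1-26 in wildtype pool 3, and Ighv9-3, Ighv1-26 and Ighv1-18 with equal reads in wildtype pool 2. Ighv8-12, named here after its values were seen, led in Col6a1-/- pools 1 and 3, with 6.41% (exact 95% interval 4.55% to 8.73%) and 6.43% (4.28% to 9.22%) of Ighv reads. It took 0.459% to 1.51% in wildtype and 0.693% in Col6a1-/- pool 2, where Ighv7-1 and Ighv7-3 were level in first place. Its groups overlapped. In Igkv, Igkv1-135 led in wildtype pools 1 and 3, Igkv16-104 in Col6a1-/- pool 2 and Igkv1-117 in the other libraries.

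Usage profiles were compared by the Morisita-Horn overlap, which is 1 for equal usage and 0 for no gene in common. For Ighv the 3 pairs of wildtype libraries had 0.841 to 0.891, and the 3 pairs of Col6a1-/- libraries had 0.682, 0.879 and 0.607. The low values were those with Col6a1-/- pool 2. The 9 pairs across genotypes had 0.708 to 0.850, below the value of 0.879 for Col6a1-/- pools 1 and 3, which lay within the range of the wildtype pairs. For Igkv the wildtype pairs had 0.938 to 0.954, Col6a1-/- pools 1 and 3 had 0.956, and the pairs of Col6a1-/- pool 2 with all others had 0.768 to 0.831. Corrected for sampling of reads, Col6a1-/- pools 1 and 3 reached 0.965 for Ighv and 0.993 for Igkv. These values have no test, since pairs share libraries.

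**Figure D5:**
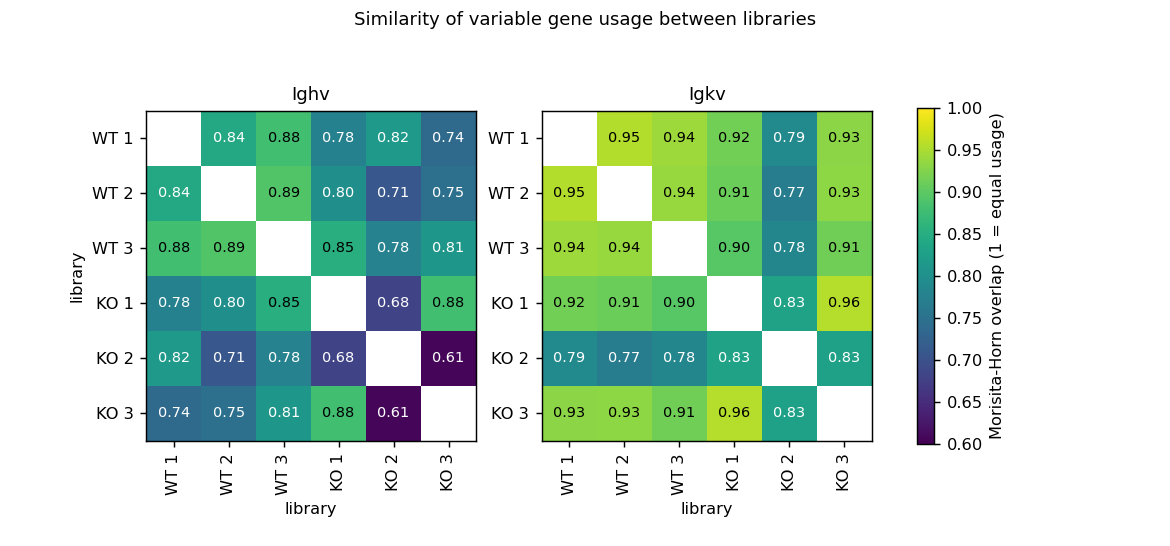
Morisita-Horn overlap of V gene usage (colour and number, 1 for equal usage) for the 15 pairs of the 6 libraries, Ighv on the left and Igkv on the right. The row of Col6a1-/- pool 2 (KO 2) is the darkest in the Igkv panel, at 0.77 to 0.83.

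V genes are grouped into families by sequence, and the number after the locus name gives the family. The Ighv1 family, the largest here with 58 members above 0, took 50.9%, 58.3% and 53.0% of Ighv reads in wildtype and 49.6%, 41.8% and 49.5% in Col6a1-/- pools 1 to 3, with no overlap and a gap between the nearest libraries smaller than the SD of either group. In share, Ighv14 was higher in Col6a1-/- libraries, at 3.81% to 7.39% against 2.60% to 3.68%, again with a gap smaller than either SD. Its mean summed normalized count was 22.3 in wildtype and 23.9 in Col6a1-/- libraries. Of the 15 Ighv and 19 Igkv families above 0, 2 in each locus had no overlap in share between the genotypes. Among all tested genes, 14.2% were lower and 10.7% higher without overlap in normalized counts. In Igkv the families without overlap were Igkv10 and Igkv16, the latter consisting of Igkv16-104. Igkv10 took 5.57% to 6.89% in wildtype and 3.76% to 5.42% in Col6a1-/- libraries, also with a gap smaller than either SD. The Igkv1 family led with 16.1% to 20.2% in wildtype and 17.4% to 18.8% in Col6a1-/- libraries, followed by Igkv4 with 30 members at 11.7% to 17.1% over all libraries.

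Pseudogenes took little of the signal. They held 0.15% to 1.72% of Ighv reads and 0.44% to 1.78% of Igkv reads, with overlapping genotypes in both loci. Of 129 rows annotated as V pseudogenes, 101 stood at 0 in all libraries, as against 21 of 216 annotated as functional.

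No gene of the lists for processes that act on V genes passed the limma threshold. The list of V(D)J recombination and of the pre-B cell receptor held 8 tested genes of 13, none called, with a median log2 fold change of 0.03. The list of hypermutation, class switching and the germinal centre held 9 tested genes of 11, none called, with a median of -0.04. Bcl6, the transcription factor of germinal centre B cells that other lung cells also express, stood at 82.6% of wildtype (limma adjusted p 0.141). All 3 octamer genes, whose products bind the octamer element of V gene promoters or assist there, had lower estimates, and Pou2af1, the B cell coactivator, stood at 68.8% (limma adjusted p 0.101). The plasma cell list had 9 of 14 lower estimates, against 48.3% of all tested genes, and a median of -0.03. In wildtype its members Sdc1 and Xbp1 had means of 7116 and 7080 normalized counts, and Mzb1 130. Which lung cells gave these reads was not tested, so that the median need not describe plasma cells. Derl3 of that list, of the degradation pathway of the endoplasmic reticulum, was at 160% of the wildtype mean (limma adjusted p 0.236). Among the 5 tested genes of 6 for mucosal antibody transport and homing, Pigr, the epithelial receptor that carries polymeric IgA and IgM into secretions, stood at 76.3% and Ccl28, a chemokine for IgA cells, at 191%, with limma adjusted p of 0.143 and 0.176. At an unadjusted limma p under 0.05, the hypermutation list had 2 lower members of 9 and the octamer list 1 lower of 3. The plasma cell list had 3 lower and 2 higher of 14, and the mucosal list 2 lower and 1 higher of 5. The recombination and B-1 lists had none. Of all tested genes, 10.6% were lower and 9.72% higher by the same rule. DESeq2 called 1 gene each in the plasma cell and octamer lists, against 5.06% of all genes with an adjusted p. By edgeR none was called in any of these lists. The B-1 cell list had a median of -0.02, and Bhlhe41 of that list had 1239 normalized counts in Col6a1-/- pool 2 and 249 to 322 in the other libraries (log2 fold change 0.88, limma adjusted p 0.282, and 0.20 on the log2 scale without that pool). Which lung cells gave the Bhlhe41 reads was not tested. The lymphoid stroma and lymph node list had 4 tested genes, none called, with a median of 0.10, and its members Ccl21a, Madcam1 and Glycam1 were at 0 in all libraries. The thymocyte list had 2 tested genes with a median of -0.04.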

How the data were processed

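RNA of 6 lung pools was sequenced. Per the submitters' processing notes, the tools were DESeq2 1.16.1 in R 3.4.1, featureCounts of Subread 1.5.0p3, STAR 2.5.2b and Trimmomatic 0.36, and the build was GRCm38.p5; the notes give no role or order, and how reads with several matches were handled was not given in the sources used here. For every gene in every pool the authors deposited a normalized count, here called a signal. Values were whole multiples of 1 step per library (100% to within 1e-06), from which reads were recovered; in Col6a1-/- replicate 3 the step was so near 1 that wholeness says little. The authors' deposited comparison table holds a log2 fold change, a p-value with its adjusted value, and a mean and test statistic, which are each a score here.

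Genotypes were compared with limma-trend (limma 3.58.1 under R 4.3.3) on log2(value + 1) over the 16879 genes that reached 10 normalized counts in 3 or more libraries. It was two-sided, had no covariate, and used a threshold of 0.05 after Benjamini-Hochberg adjustment over those genes. Fold changes on this scale understate those of low genes. SE is that of the coefficient, and errors beside means are SDs over 3 pools. The scripts were tested on simulated data. Shares, evenness and overlap are from recovered reads or normalized counts and have no test. Exact binomial intervals (95%, Clopper-Pearson) cover counting error only, since reads without molecular identifiers are not independent molecules. Windows of 50 bases were compared with all GENCODE M21 transcripts on both strands. Named V genes were the 10 of highest mean in Ighv and Igkv, all Iglv genes, called genes, up to 5 per direction of smallest p without overlap, and those over 10% of their class in a library; list genes named were the constant genes, called genes and those among the 3 smallest p of a list, with others named after their values were seen. Members, lists and tests were chosen with earlier results of these data known. Alternatives included edgeR 4.0.16 and DESeq2 1.42.0 on recovered reads. The pool numbers of the genotypes were not treated as pairs. Figures were drawn with matplotlib 3.10.9.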

Additional observations from a re-analysis of the deposited data

How the results depend on the processing

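No V gene was called by limma with pseudocounts of 0.5 or 5, no filter, a filter at 50 (4 V genes tested), median centring or edgeR's factors, nor by edgeR's own test. DESeq2 called 2. Leaving out single libraries gave 0 to 4 called, the 4 being without wildtype replicate 3, where Iglv1 (log2 fold change -1.59, limma adjusted p 0.00911), Ighv9-3 (-1.45, adjusted p 0.0398) and Igkv4-72 (1.62, adjusted p 0.0285) were among them; without that library 1383 genes were called in the whole table, against 11 with it, and the remaining wildtype pools had 0.347% and 3.35% of the highest Y-linked signal. With the replicate block 0 were called; the correlations of same-numbered pools in their deviations were -0.136, 0.106 and -0.006, so that the numbers do not pair the pools. With the scaled Y-linked signal ("male share") as a covariate 0 were called, 4 had an unadjusted p under 0.05 and the median log2 fold change of the 65 was -0.35. The share of all tested genes at that unadjusted p was not worked out.

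Set against the constant genes of the locus, the log2 ratio of class sums was -0.27 for Ighv, -0.051 for Igkv and -0.46 for Iglv. In rpm without Iglv1, that of Iglv was 0.00499. In the pools of intermediate Y-linked signal alone the ratios were -0.35, -0.16 and -0.13. Leaving out single libraries gave -0.72 to -0.50 for Ighv, -0.36 to -0.22 for Igkv and -0.98 to -0.43 for Iglv. The difference in Simpson effective number ran from -2.82 to 3.06 for Ighv and from -4.69 to 3.14 for Igkv in those fits, so that its sign depended on single libraries. The difference in Ighv genes above 0 was -7.67, and -1.96 at equal reads.

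Some single gene estimates changed sign. Iglv2 was at 0.39 and Iglv3 at 0.10 with the male share, Iglv2 at 0.0025 with edgeR and 0.0055 with DESeq2. Without Col6a1-/- replicate 2 they were 0.15 and 0.19, without wildtype replicate 1 they were 0.13 and 0.05, and Iglv3 was 0.07 without wildtype replicate 3; over the fits that left out 1 library each, Iglv2 ran from -0.090 to 0.15 and Iglv3 from -0.28 to 0.19. Igkv19-93 was 0.12 with the male share, Igkv1-117 was 0.061 without Col6a1-/- replicate 1 and Ighv7-1, at -0.76 with all libraries, was 0.11 without Col6a1-/- replicate 3. The causes were not tested. V reads of 1498 to 2327 per library limit what can be read for single genes.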

Other observations

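Position along the locus was described by dividing the members of a class into 3 sets of near equal size by distance from Ighm or Igkc. The 37 Ighv genes nearest to Ighm, within 0.902 Mb, took 36.7%, 31.6% and 34.3% of Ighv reads in wildtype and 32.4%, 47.6% and 31.9% in Col6a1-/- replicates 1, 2 and 3. Ighv7-1 and Ighv7-3, which lie in that set, were part of the high value of Col6a1-/- replicate 2, at 6.47% of its Ighv reads each. In Igkv the 36 genes farthest from Igkc, beyond 1.96 Mb, took 46.2% to 48.6% in wildtype and 48.0% to 51.8% in Col6a1-/- libraries, and the 37 genes of the middle set 14.8% to 16.3% and 12.3% to 19.8%, so that usage was lowest in the middle of the kappa locus in all 6 libraries.

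Of 216 V genes annotated as functional, 21 stood at 0 in all libraries, 15 of them Ighv and 6 Igkv. Their median unique share of windows was 74.1%, against 76.8% for the functional genes above 0, and 6 of the 21 were below 50%, against 28 of 195. Ighv1-71, at 0, had 2.58% unique windows, the lowest of these 21 genes, while Ighv16-1, Ighv2-7 and 4 others were fully unique and also at 0.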
